A study of Mus musculus with 2 samples.

Results

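S100 proteins, annexins and galectins were followed in mouse bone marrow-derived macrophages through 10 genes: S100a4, S100a6, S100a8, S100a9, S100a10, S100a11, Anxa1, Anxa2, Lgals1 and Lgals3. The genes were taken by symbol from a table of 34745 Ensembl gene identifiers, and all 10 were found. They were chosen with their values in these libraries known, so every value below is a description and carries no test. Macrophages were primary cells of C57BL/6 mice. Both groups were transfected with an antisense oligonucleotide (ASO), a short synthetic strand that pairs with a target RNA, and both were treated with lipopolysaccharide (LPS), the bacterial product sensed by TLR4. One group received Control-ASO and the other AclyE14-ASO, which is named for Acly, the gene of ATP-citrate lyase. The sources used here state neither the age and sex of the mice nor the LPS dose and the times, and no library without LPS was analysed.

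Each group was 1 library, of 14215397 gene counts with Control-ASO and 12751076 with AclyE14-ASO, so no difference has a replicate check, and the 2 libraries may also differ as cultures. Levels are FPKM (fragments scaled to gene length and library total) as deposited. Differences are log2((AclyE14-ASO FPKM + 1)/(Control-ASO FPKM + 1)), and a gene counts as expressed from a mean of 1 FPKM over both libraries. Count ratios are per library total, without a pseudocount, with exact 95% (Clopper-Pearson) intervals that cover counting error only and not differences between cultures. Reads sequenced without molecular identifiers may be copies of 1 molecule, so the intervals may be too narrow. Over the 8658 genes that reached the limit the median log2 ratio was -0.13, so a gene at 0 lay slightly above the middle gene. Acly was at 13.3 FPKM with Control-ASO and 7.35 FPKM with AclyE14-ASO. All 8 macrophage markers examined were expressed, among them Csf1r, the receptor of the macrophage growth factor, at 64.7 and 50.7 FPKM.

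These families are proteins that bind calcium, membranes or sugars. S100 proteins are small, carry EF-hand calcium sites and usually work as dimers: S100A8 and S100A9 form calprotectin, an antimicrobial complex and alarmin of neutrophils and monocytes, and S100A10 forms a tetramer with annexin A2. Annexins bind phospholipid membranes when calcium rises, in membrane repair, vesicle traffic and, for annexin A1, in the resolution of inflammation through formyl peptide receptors. Galectins bind beta-galactosides on glycoproteins, and galectin-3 is an abundant product of macrophages.

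The promoters of S100a4 and S100a6, neighbours on chromosome 3, are shown because these genes had the largest and the next largest log2 ratio of the 10, and those of S100a11 and Anxa2 because both carry an AP-1 motif and had nearly equal ratios. Promoters came from RefSeq (GRCm38.p6), which held 8 of the 10 genes; Lgals1 and S100a10 were not matched. They are printed in the direction of transcription and end before the first base of the annotated transcripts, at chr3:90603520-90603769 (plus strand), chr3:90612644-90612881 (plus), chr3:93520246-93520487 (plus) and chr9:69453433-69453619 (plus). Capitals mark TATAAA, the core of the TATA box, and TGANTCA, where N is any base, a pattern that includes the AP-1 site TGAGTCA.
S100a4: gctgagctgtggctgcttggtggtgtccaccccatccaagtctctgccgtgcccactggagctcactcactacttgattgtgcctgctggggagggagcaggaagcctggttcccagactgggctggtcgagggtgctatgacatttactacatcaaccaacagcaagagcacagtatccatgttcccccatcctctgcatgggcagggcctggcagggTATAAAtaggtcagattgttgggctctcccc
S100a6: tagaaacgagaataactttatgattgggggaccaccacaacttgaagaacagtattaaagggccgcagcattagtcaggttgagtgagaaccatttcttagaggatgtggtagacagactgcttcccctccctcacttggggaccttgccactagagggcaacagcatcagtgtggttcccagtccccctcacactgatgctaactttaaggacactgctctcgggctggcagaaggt
S100a11: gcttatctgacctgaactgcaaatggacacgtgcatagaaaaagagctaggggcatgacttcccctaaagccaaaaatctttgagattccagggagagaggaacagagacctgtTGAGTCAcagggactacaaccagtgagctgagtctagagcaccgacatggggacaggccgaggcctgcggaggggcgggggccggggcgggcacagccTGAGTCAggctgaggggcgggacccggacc
Anxa2: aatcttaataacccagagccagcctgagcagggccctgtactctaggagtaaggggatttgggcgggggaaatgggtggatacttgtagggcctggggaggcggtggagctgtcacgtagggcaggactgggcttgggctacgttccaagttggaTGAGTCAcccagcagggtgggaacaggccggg
Both motifs were picked after the sequences had been seen and searched on both strands, from 250 bases before to 50 bases after each start, and no match of one overlapped a match of the other. TATAAA was found in 5 of the 8 promoters (S100a4, S100a8, S100a9, Anxa1 and Anxa2) and in 13.6% of all 32851 promoters of this length. Positions here count from the RefSeq start, which can lie further downstream than the end of the printed stretch, because printing stops at the first GENCODE coding transcript. In S100a4 TATAAA began 31 bases before the RefSeq start. In S100a8, S100a9 and Anxa2 it lay past the end of the stretch so defined, and the printed Anxa2 sequence therefore does not hold it. TGANTCA was found in 2 of the 8, S100a11 at 136 and 38 bases and Anxa2 at 95 bases before the RefSeq start, and in 7.81% of all promoters. A match is a run of letters and not a shown site of binding.

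Of the 10 genes, 9 reached a mean of 1 FPKM, each of them in both libraries, and S100a9 did not. At 1.5-fold on FPKM + 1, 5 of the 9 were higher with AclyE14-ASO (S100a4, S100a6, S100a8, Lgals1 and Anxa1), 0 were lower and 4 lay between. Over all expressed genes 7.03% were higher and 8.48% lower by this measure, 609 against 734 genes. At 2-fold 4 of the 9 were higher, S100a4, S100a6, S100a8 and Lgals1, against 3.18% of all expressed genes higher and 1.55% lower. When log2 ratios were centred on the median gene the split over all genes at 1.5-fold became 851 against 406. Nothing is read from the 5, since the genes were chosen with this contrast known. Together the 10 genes took 1.01% of all counts with Control-ASO and 1.10% with AclyE14-ASO, of which Lgals3 alone held 0.711% and 0.625%. The median log2 ratio of the 9 was 0.74, with a range from -0.19 to 3.16, and without S100a4 it was 0.65.

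**Figure D1:**
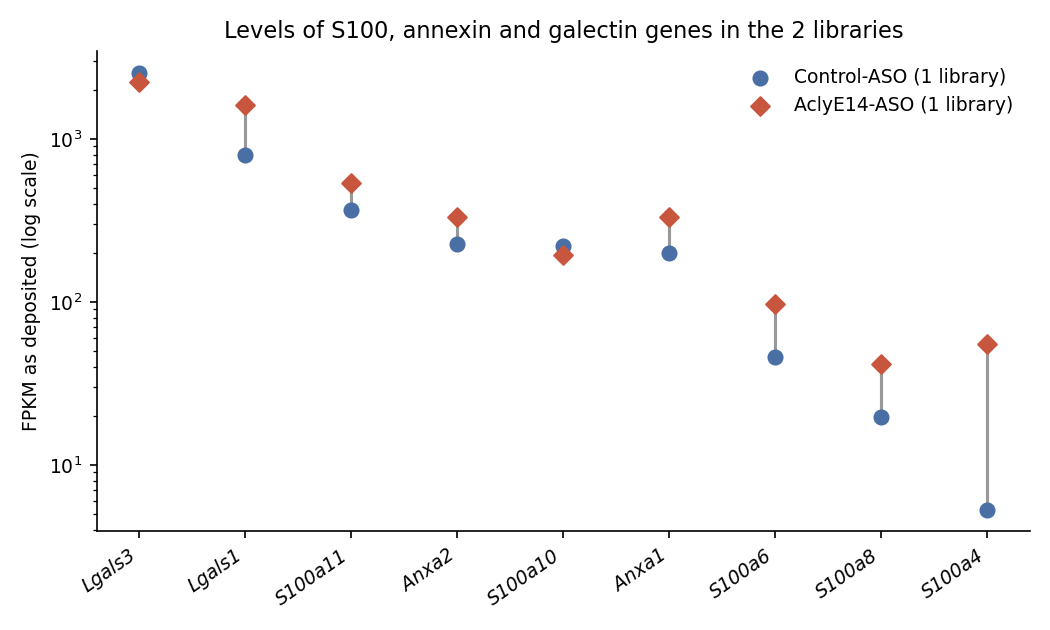
Level of each detected gene (FPKM as deposited, log scale) in the Control-ASO library (circle) and the AclyE14-ASO library (diamond), 1 library each, joined by a line. Lgals3 was highest in both libraries, S100a4 was at 5.31 and 55.4 FPKM, and S100a10 and Lgals3 were the only detected members lower with AclyE14-ASO.

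S100a4 differed most. The gene encodes a calcium sensor that binds non-muscle myosin and is made by motile cells, fibroblasts and macrophages among them. It had 63 counts with Control-ASO and 589 with AclyE14-ASO (ENSMUSG00000001020, chromosome 3, 90603771 to 90606045, plus strand, GRCm38). In FPKM this was 5.31 and 55.4, from place 4681 to place 773 in the order of all genes. The count ratio was 10.4 (8.03 to 13.7). Of all 8658 expressed genes, 1 had a higher log2 ratio than the 3.16 of S100a4. The annotated gene Gm42674 shares 302 identical bases with S100a4 on the same strand and had 0 counts in both libraries, while reads from that stretch cannot be told apart between these genes.

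S100a6, which encodes calcyclin, lies 6.84 kb downstream of S100a4 on the same strand. It had 1268 and 2379 counts, or 46.2 FPKM with Control-ASO and 96.7 FPKM with AclyE14-ASO (ENSMUSG00000001025, chromosome 3, 90612882 to 90624181). The count ratio was 2.09 (1.95 to 2.24) and the log2 ratio 1.05. Levels of S100a6 and S100a4 lay nearer to each other with AclyE14-ASO: S100a6 was 8.70 times as high as S100a4 in FPKM with Control-ASO and 1.75 times with AclyE14-ASO. The ratio of the pair differed between libraries by a factor of 0.201 (0.153 to 0.263, counting error only).

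S100a8 was detected and its partner S100a9 was not. S100a8, the smaller calprotectin subunit (ENSMUSG00000056054, chromosome 3, 90668978 to 90670035, plus strand), had 276 and 520 counts, or 19.7 and 41.4 FPKM. Its count ratio was 2.10 (1.81 to 2.44) and its log2 ratio 1.03. S100a9 (ENSMUSG00000056071, chromosome 3, 90692632 to 90695721, minus strand) lies 22.6 kb from S100a8 and was listed at 0 counts in both libraries. A count of 0 allows up to 3 counts, here 0.290 FPKM with Control-ASO and 0.323 FPKM with AclyE14-ASO, using the summed exon length of the GENCODE M21 annotation. Both limits lie far under the level of S100a8. No near copy of S100a9 was found among the annotated transcripts. Whether a count of 0 in this table always stands for a low level was not tested. Nor was it tested why S100a9 stands at 0, and no fold is given for it.

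Neutrophils are the richest source of calprotectin, so their markers were read beside S100a8. Of 12 other neutrophil markers 3 reached a mean of 1 FPKM: Csf3r, the G-CSF receptor (4.17 and 6.58 FPKM), Mmp8 (2.21 and 2.43 FPKM) and Lcn2 (1.71 and 2.09 FPKM). The granule and lineage genes Camp, Elane, Ly6g, Prtn3 and Retnlg had 0 counts in both libraries. The summed level of the 12 was 8.19 FPKM with Control-ASO and 11.2 FPKM with AclyE14-ASO. Which cells the S100a8 counts came from was not tested.

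S100a11 and S100a10 sit 28.8 kb apart at the far end of the cluster, and neither passed 1.5-fold. S100a11, a partner of annexin A1 (ENSMUSG00000027907, chromosome 3, 93520488 to 93526287), was at 368 FPKM with Control-ASO and 540 FPKM with AclyE14-ASO, from 2673 and 3518 counts. Its count ratio of 1.47 (1.39 to 1.54) spanned the 1.5-fold limit, and its log2 ratio of 0.55 was just under it. In GENCODE M21, 5 annotated processed pseudogenes match S100a11 at 90% identity or more over 200 bases, among them Gm12854 (99.0% over 297 bases) and Gm7665 (98.7%), so its count is uncertain where reads were split. Of these, S100a11-ps was in the table, with 0 counts in both libraries, and the other 4 were not in the table. S100a10, the light chain of the annexin A2 tetramer (ENSMUSG00000041959, chromosome 3, 93555080 to 93564643), was at 220 and 195 FPKM from 5066 and 4032 counts. Its count ratio was 0.887 (0.851 to 0.925) and its log2 ratio -0.17, close to the median of all expressed genes. The ratio of S100a11 to S100a10 was 1.67 with Control-ASO and 2.77 with AclyE14-ASO in FPKM.

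**Figure D2:**
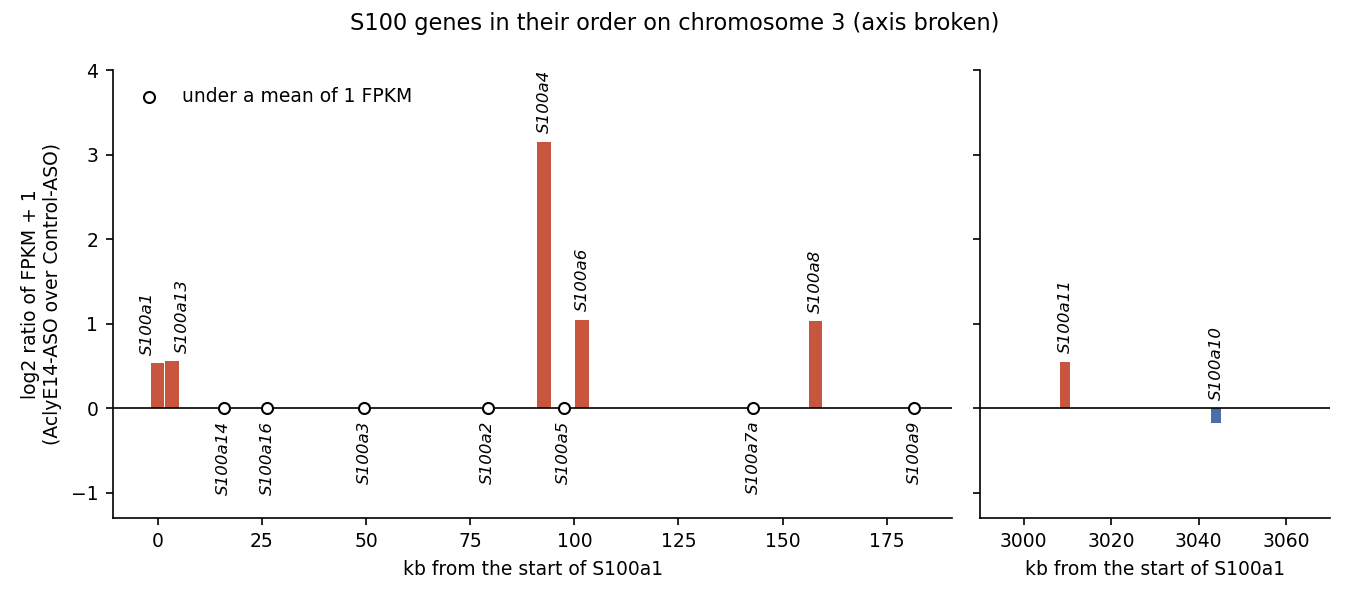
S100 genes by distance from the start of S100a1 (x axis, kb, broken between S100a9 and S100a11), with the log2 ratio of FPKM + 1 as bars for expressed genes and open circles for genes under a mean of 1 FPKM, 1 library per group. S100a4 reaches 3.16, the adjacent S100a6 and the farther S100a8 reach 1.05 and 1.03, and S100a10 at the far end is at -0.17.

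All 6 S100 genes among the 10 belong to this 1 cluster on chromosome 3. The table held 14 S100 genes there, of which 7 were expressed, 3 of those were 1.5-fold higher and 0 lower. The non-members S100a1 (418 and 604 FPKM, log2 ratio 0.53), a calcium sensor best known from heart muscle, and S100a13 (48.7 and 72.0 FPKM, log2 ratio 0.55) lay just under the limit. S100a5, between S100a4 and S100a6, had 0 counts in both libraries. Of 60 protein-coding genes between S100a9 and S100a11, a stretch known for skin barrier genes, 5 were expressed, 0 were higher and 2 lower by 1.5-fold. Within 500 kb beyond either end of the cluster, 13 other genes were expressed, 0 were 1.5-fold higher and 1, Jtb, was lower, with a median log2 ratio of -0.09. Over all expressed genes 7.03% were higher and 8.48% lower, and no test of position was made.

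Of the annexin genes Anxa1 passed 1.5-fold and Anxa2 did not. Anxa1 (ENSMUSG00000024659, chromosome 19, 20373428 to 20390944, minus strand), the gene of a glucocorticoid-inducible mediator that limits leukocyte entry, was at 198 FPKM with Control-ASO and 332 FPKM with AclyE14-ASO. This rested on 10610 and 15929 counts, a ratio of 1.67 (1.63 to 1.72). Anxa2 (ENSMUSG00000032231, chromosome 9, 69453620 to 69491795, plus strand), the gene of a membrane organiser and receptor for tissue plasminogen activator, was at 226 and 330 FPKM, from 13146 and 17211 counts. Its ratio was 1.46 (1.43 to 1.49), with an interval that ended just under 1.5, and its log2 ratio was 0.54. Anxa2 and S100a10, whose products join in one tetramer, stood farther apart with AclyE14-ASO. S100a10 was 0.972 times as high as Anxa2 in FPKM with Control-ASO and 0.591 times with AclyE14-ASO, a difference by a factor of 0.608 (0.580 to 0.637). With the union of exons as gene length S100a10 was 1.19 and 0.721 times as high, so that which gene was higher with Control-ASO depends on the length used.

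The galectin genes were the most abundant of the 10 and differed from each other. Lgals1, the gene of galectin-1 (ENSMUSG00000068220, chromosome 15, 78926725 to 78930465, plus strand), was at 795 FPKM with Control-ASO and 1609 FPKM with AclyE14-ASO, from 9044 and 16416 counts. Its count ratio was 2.02 (1.97 to 2.08), and its gain of 814 FPKM was number 12 among the gains of all genes in the table. Lgals3, the gene of galectin-3, which binds damaged endosomes and lysosomes (ENSMUSG00000050335, chromosome 14, 47367751 to 47386160, plus strand), was at 2553 and 2244 FPKM. Its 101127 and 79738 counts gave a ratio of 0.879 (0.871 to 0.887), and its log2 ratio of -0.19 was near the median of all genes. It held place 16 among all genes with Control-ASO and place 21 with AclyE14-ASO. The FPKM ratio of Lgals3 to Lgals1 was 3.21 and then 1.39, a factor of 0.434 (0.423 to 0.446). With the union of exons as gene length the ratios were 5.43 and 2.36, with the same factor.

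**Figure D3:**
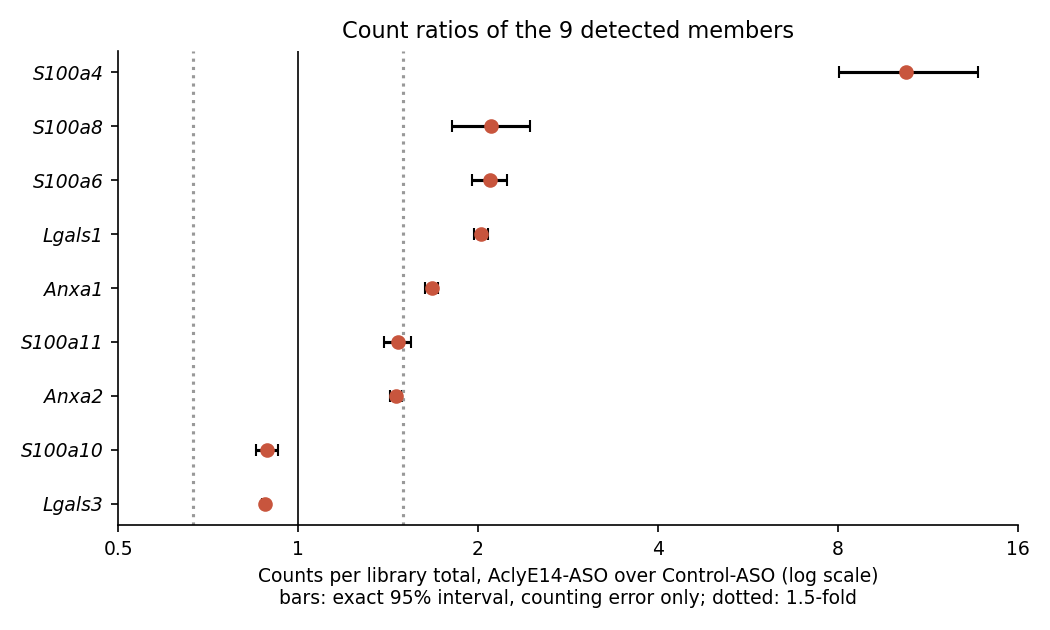
Ratio of counts per library total, AclyE14-ASO over Control-ASO (x axis, log scale), for the 9 detected genes, with exact 95% intervals for counting error as bars and the 1.5-fold limits dotted. S100a4 stands at 10.4, S100a6, S100a8 and Lgals1 cluster between 2.02 and 2.10, and S100a10 and Lgals3 lie at 0.887 and 0.879.

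The genes kept much of their order of levels. In both libraries Lgals3, Lgals1 and S100a11 came first in FPKM, and S100a6 held place 7. S100a4 was place 9 with Control-ASO, under S100a8, and place 8 with AclyE14-ASO, over it. Anxa2, S100a10 and Anxa1 were close to each other with Control-ASO, at 226, 220 and 198 FPKM, and their order there depends on the gene length used. The deposited FPKM values rest on a length that for 66.0% of genes equals the sum of all distinct annotated exons, overlapping ones counted more than once. With the union of exons as the length, the 3 genes were at 248, 294 and 256 FPKM, in the order S100a10, Anxa1, Anxa2, and Lgals3 was at 3829 FPKM. With AclyE14-ASO the order was the same on both lengths.

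Other genes of the same families were read from a list. Of 29 other S100, annexin and galectin genes listed, 27 were in the table and 10 were expressed. Only Anxa6, which takes part in membrane traffic and cholesterol handling, was higher by 1.5-fold (31.8 and 54.6 FPKM, count ratio 1.72, 1.60 to 1.84), and 0 were lower, with a median log2 ratio of 0.12. This 1 of 10 is near the 7.03% over all expressed genes. Anxa5, the phosphatidylserine-binding annexin and the most abundant of the relatives, was at 833 and 710 FPKM, with a log2 ratio of -0.23. Lgals9, a ligand of TIM-3, was the most abundant other galectin, at 152 and 150 FPKM, and Lgals8 was at 26.9 and 33.8 FPKM. Among the relatives under 1 FPKM, 8 had 0 counts in both libraries. S100a7a and Lgals7 each had 0 and 8 counts. Anxa8 had 0 and 15 counts. S100a16 had 1 and 14 counts, a ratio of 15.6 with an interval from 2.37 to 660. Anxa13 had fewer with AclyE14-ASO, 11 and 2 counts.

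**Figure D4:**
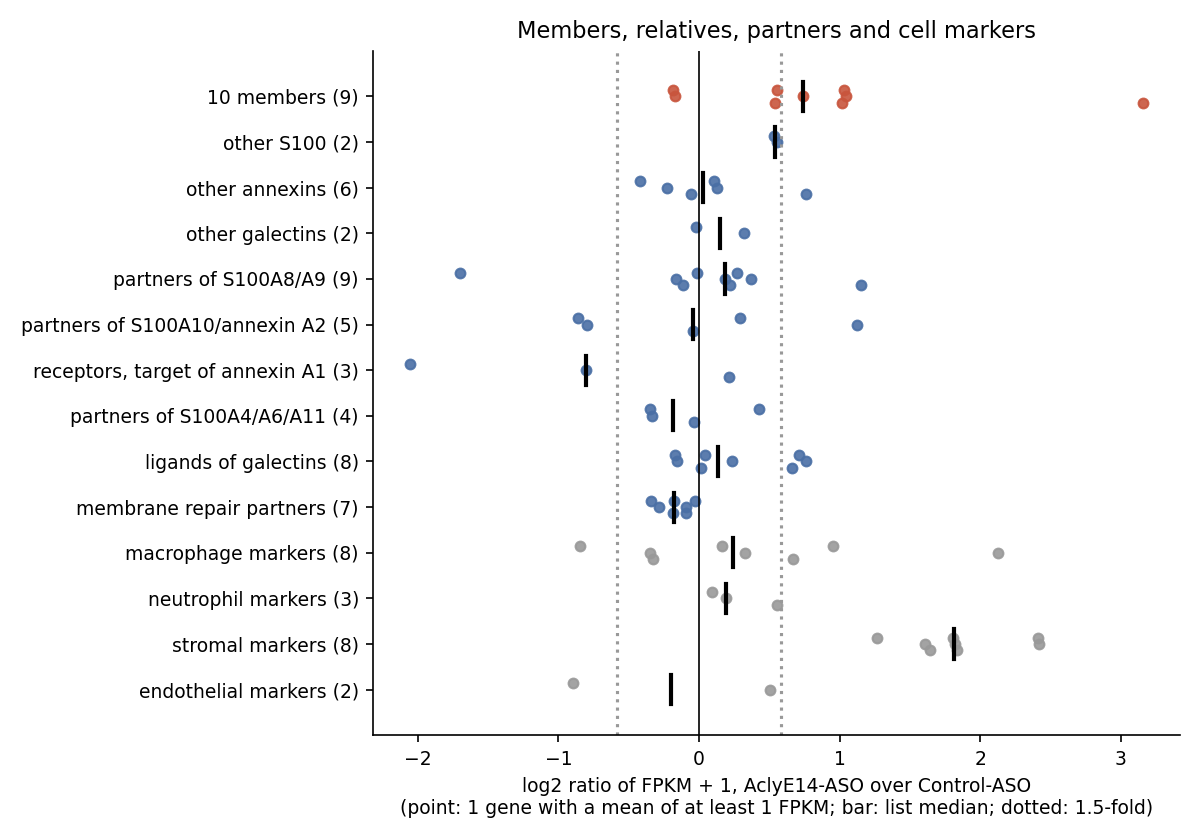
Log2 ratio of FPKM + 1 (x axis) for each expressed gene (points) in the 10 genes, their relatives, their partners and cell type markers, with each list's median as a black bar, its number of genes in brackets and the 1.5-fold limits dotted. Stromal markers have the highest median, 1.82, and the annexin A1 list has the lowest, -0.80. Of the 8 stromal markers shown, 2 passed the limit only through the AclyE14-ASO library. Tlr4, a partner gene shown, reached a mean of 1 FPKM only through the Control-ASO library.

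Genes whose products meet these proteins were read from lists, chosen with earlier results known, and not picked one by one. Of 41 partner and receptor genes 36 were expressed, of which 5 were higher and 5 lower by 1.5-fold, with a median log2 ratio of -0.04. Tlr4, among the lower genes, passed the limit for expression only through the Control-ASO library. Over all expressed genes the shares were 7.03% higher and 8.48% lower. Receptors of annexin A1 were lower while Anxa1 was higher. Fpr1 was at 16.7 and 3.26 FPKM, from 314 and 55 counts, with a count ratio of 0.195 (0.144 to 0.261). Fpr2, the receptor best known for annexin A1, was at 20.8 and 11.5 FPKM with a count ratio of 0.554 (0.480 to 0.637), and Fpr3 had 1 and 0 counts. Pla2g4a, the phospholipase that annexin A1 restrains, was within 1.5-fold.

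Of the 9 expressed genes on the list of calprotectin receptors and partners, 1 was higher and 1 lower by 1.5-fold. Each is near the share over all expressed genes, 7.03% higher and 8.48% lower. Cd14 had a count ratio of 2.23, from 22791 and 45504 counts, and Tlr4 one of 0.168, from 477 and 72 counts. At 4.96 and 0.835 FPKM, Tlr4 reached a mean of 1 FPKM only through the Control-ASO library, which fixed its direction. Ager, which encodes RAGE, had 0 counts in both libraries. The other 7 expressed genes of that list, among them the NADPH oxidase subunit gene Cyba at 1278 and 1267 FPKM, lay within 1.5-fold.

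Around the annexin A2 and S100A10 tetramer, which gathers plasminogen and its activator on the cell surface, 1 of 5 expressed genes was higher and 2 were lower. Among all expressed genes 7.03% were higher and 8.48% lower by 1.5-fold. Ahnak, the giant scaffold bound by the tetramer, was at 52.7 and 28.5 FPKM with a count ratio of 0.541 (0.525 to 0.557). Plau, the gene of urokinase, was at 334 and 192 FPKM, and its receptor gene Plaur was at 166 and 203 FPKM, within 1.5-fold. Plat, tissue plasminogen activator, was higher, with 48 and 132 counts.

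Of 8 expressed genes whose products carry or regulate galectin ligands, 3 were higher and 0 lower by 1.5-fold. The shares over all expressed genes were 7.03% higher and 8.48% lower. Lamp1 and Lamp2, heavily glycosylated lysosomal membrane proteins, were at 1036 and 1637 FPKM and at 48.2 and 79.7 FPKM. Havcr2, which encodes TIM-3, was at 1.84 and 3.81 FPKM, and the secreted galectin-3 ligand Lgals3bp was at 346 and 350 FPKM. All 4 partners of S100A4, S100A6 and S100A11 and all 7 expressed membrane repair partners of annexins lay within 1.5-fold. The most abundant gene was Sugt1 in the first of these lists (57.5 and 56.2 FPKM) and Chmp4b in the second (273 and 257 FPKM).

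Genes of these families are also expressed by stromal cells, so stromal markers were read beside the 10 genes. Of 12 fibroblast and stromal markers 8 reached a mean of 1 FPKM, and all 8 were higher by 2-fold or more, against 3.18% of all expressed genes. These were Col1a1, Col1a2, Dcn, Sparc, Tagln, Acta2, Thy1 and Pdgfra. Thy1 and Pdgfra, 2 of the 8, passed the limit only through the AclyE14-ASO library, which fixed their direction. The 4 under the limit were Col3a1 (18 and 193 counts), Pdgfrb (11 and 77), Postn (0 and 5) and Lum (6 and 6). None of the 12 had 0 counts in both libraries. The summed level of the 12 markers was 49.3 FPKM with Control-ASO and 216 FPKM with AclyE14-ASO. Their part in the values of the 10 genes was not tested. In bulk RNA a change in the share of a cell type and a change of RNA per cell cannot be told apart. Endothelial markers summed to 12.7 and 8.22 FPKM, carried by Kdr (11.1 and 5.49 FPKM), while Cdh5, the other one expressed, was at 1.09 and 1.97 FPKM. Dendritic cell and lymphocyte markers stayed under 1 FPKM in sum in each library.

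The gene length behind the deposited FPKM was set beside the ratios as well, since some S100 and galectin transcripts are short. By this length S100a11 had 511 nt, S100a6 1930 nt and Lgals3 2787 nt. Protein-coding genes under 1000 nt had a median log2 ratio of 0.01, those of 1000 to 2000 nt -0.09 and longer ones -0.14. The shares of genes 1.5-fold higher were 12.6%, 12.5% and 6.13%. With the trend on length removed, S100a4 was at 3.19, Lgals1 at 1.04 and S100a6 at 1.16 on the log2 scale. Mitochondrially encoded protein genes had a median log2 ratio of -0.35. The part of RNA composition in these values was not tested.

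**Figure D5:**
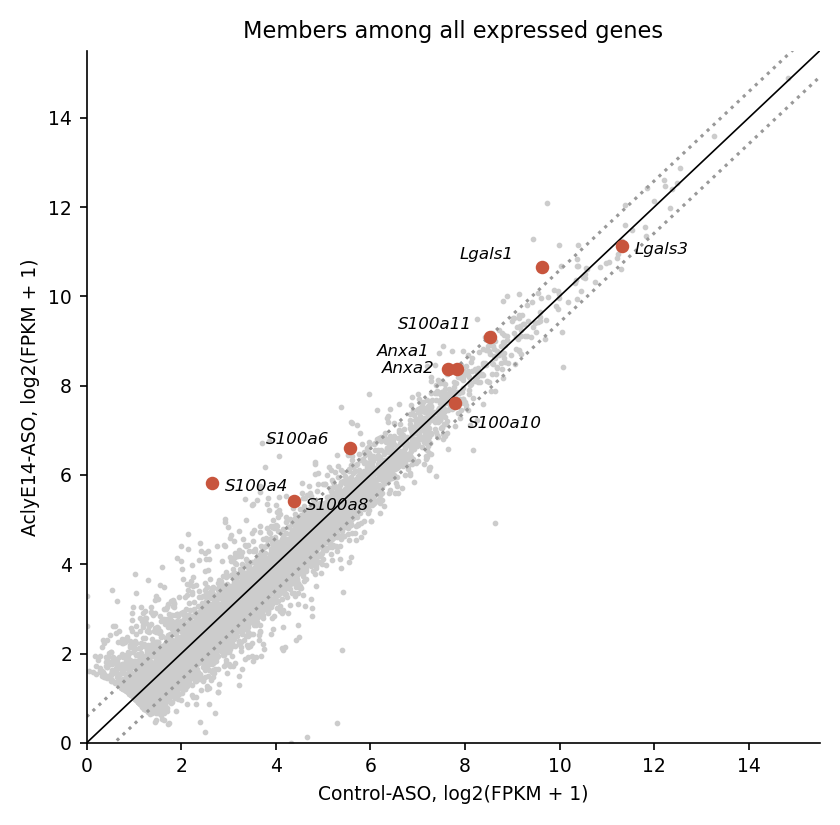
Log2(FPKM + 1) with AclyE14-ASO (y axis) against Control-ASO (x axis) for all 8658 expressed genes (grey), with the 9 detected members in red, the line of equal level solid and 1.5-fold dotted. S100a4 lies at the upper edge of the cloud, and Lgals3 and S100a10 lie close to the line of equal level.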

How the data were processed

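RNA sequencing of 2 libraries of LPS-treated mouse macrophages was deposited by the authors as raw counts and FPKM per Ensembl gene, per the file headers. The submitters' processing notes name HISAT2, StringTie 1.3.0, edgeR and mm10 without a role, and the sources used here do not state strand use or the treatment of shared reads. The deposited FPKM equalled counts per length and library total: FPKM per count differed between libraries by 1.1148 to 1.1149 over 10077 genes with more than 20 counts in each, and the totals by 1.1148. Symbols and positions came from GENCODE M21 (GRCm38, the mm10 assembly), matched for 34267 of 34745 identifiers.

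Computed here were log2 ratios of FPKM + 1, count ratios with exact conditional binomial intervals, and counts at 1.5-fold. The intervals and calls at 2-fold on FPKM + 1 were tested on simulated data with counting error only, and calls at 1.5-fold were not. Of the listed genes, 1 partner is not reported here and is left out of the list counts. The 10 genes and all lists were chosen with earlier results of these data known. Named genes were the 10, Acly, and per partner list those past 1.5-fold and the most abundant. Low relatives, Lgals8, Jtb, Plaur, Pla2g4a and single markers were chosen after seeing their values. With 1 library per group no test was run. Near copies were sought with BLAST 2.17.0 among GENCODE transcripts (90% identity over 200 bases). Alternatives were pseudocounts of 0.1 and 5, centring on the median gene, TMM factors (edgeR 4.0.16, R 4.3.3) on FPKM or CPM, counts without pseudocount, removal of the length trend (lowess, statsmodels 0.14.6), other filters and thresholds, and, chosen after seeing the data, exon union length. The rest used SciPy 1.17.1, pandas 2.3.3 and NumPy 2.4.6 under Python 3.11.15.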

Additional observations from a re-analysis of the deposited data

How the results depend on the processing

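No paired analysis was possible because each group was 1 library and the labels give no replicate numbers, and no library could be left out. S100a4, S100a6, S100a8, Lgals1 and Anxa1 were higher by 1.5-fold under all 10 alternatives other than the size thresholds, and 0 of the 10 genes were lower. S100a11 and Anxa2 joined them when ratios were centred on the median gene or scaled by TMM, on FPKM or on CPM, and Anxa2 alone when the length trend was removed. At 2-fold 4 of the genes remained and at 4-fold 1. Over the 8 alternatives per gene that change its value, S100a4 ranged from 2.55 to 3.38 on the log2 scale, S100a10 from -0.17 to -0.04 and Lgals3 from -0.19 to -0.06. The median log2 ratio was 0.87 with centring, 0.84 with TMM on FPKM and on CPM, 0.87 without the length trend and, because S100a9 then enters at 0, 0.65 with no filter. Among the relatives, 1 of which was higher, the number became 3 with centring and with TMM on FPKM or CPM, 2 without the length trend or without a filter, and 0 at 2-fold and 4-fold; 1 was lower without a filter. Of the partner genes 3 were higher, in place of 5, with a pseudocount of 5 and at a mean of at least 5 FPKM, 2 were higher and 2 lower at 2-fold, and 0 were higher and 1 lower at 4-fold. Over all genes 275 were higher and 134 lower by 2-fold. Higher genes numbered 82 with a pseudocount of 5, 416 with CPM and TMM, 422 by counts, 127 at a mean of at least 5 FPKM, and 609 at 1.5-fold and 28 at 4-fold. Lower genes numbered 264 and 42 with pseudocounts of 0.1 and 5, 290 by counts, and 734 at 1.5-fold and 12 at 4-fold. Centring turned the 2-fold split into 348 against 91. The causes of these shifts were not tested. Counting error is widest for the relatives under 1 FPKM and, with 63 counts in the control library, for S100a4 among the 9 detected genes.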
